A study of Mus musculus with 10 samples.

Results

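The forkhead genes encode transcription factors that share the winged-helix DNA-binding domain. Their methylation in spermatozoa was read at 4157 CpG sites, out of 904364 CpG sites of the whole series that were covered by 10 or more reads in every one of the 10 animals after both strands of a site were summed. The list held 39 autosomal forkhead genes and was chosen by gene name. Sites were taken from 2 kb upstream of the gene start to the gene end (mm10, GENCODE). Within 1 kb of the start, 2101 sites were counted as promoter, 1923 further sites lay in the gene bodies and 133 lay 1 to 2 kb upstream.

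Reduced representation bisulfite sequencing (RRBS), in which MspI fragments are converted with bisulfite so that unmethylated cytosines read as thymine, was performed on sperm DNA of 10 male C57Bl/6 mice. In the P-generation, 3 males (D10, D11, D13) had been injected intraperitoneally with decitabine, an inhibitor of DNA methyltransferases, at 0.1 µg per g body weight 3 times per week for 7 weeks from the age of 7 weeks, and 2 males (C8, C14) had received the vehicle, PBS with 7.5% DMSO. In the F3-generation, 3 untreated males (F3D1, F3D31, F3D7) descended from decitabine treated males and 2 untreated males (F3C9, F3C30) from vehicle males, through the male line. According to the study's legend F3D1 and F3D31 share the ancestor D10, F3D7 descends from D11, F3C9 from C8 and F3C30 from C14, so the descendants are not independent lines.

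Most forkhead factors bind DNA as monomers, and many act in embryonic patterning and in the identity of endoderm, mesoderm and neural tissue. The FOXO members act downstream of insulin and PI3K-AKT signalling, FOXM1 in the cell cycle and FOXJ1 in the formation of motile cilia. Promoters of such developmental regulators usually lie in CpG islands, which are kept free of DNA methylation in sperm, whereas the bodies of long genes are commonly methylated.

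Summed coverage ranged from 48903817 in D13 to 115158278 in F3D1, and the median depth of sites with at least 10 reads from 31 to 65 reads. At 16 reads the 95% Wilson interval of a level of 50% ran from 28% to 72%, and at 60 reads from 37.7% to 62.3%. These intervals cover counting error only. Of 9 germ line gene promoters that are methylated in somatic cells, the mean level per animal ranged from 17.6% to 30.5% in P vehicle, 22.6% to 30.7% in P decitabine, 13.8% to 26.7% in F3 vehicle and 13.1% to 21.2% in F3 decitabine animals. The mean of 9 maternally methylated imprinted promoters ranged from 7.9% (C14) to 15.8% (C8). The list was split in C8, which read 36.9% at Peg3 and 32.2% at Mcts2 but 0% at Kcnq1ot1 and Airn. In C14 these promoters read 5.1%, 13.6%, 8% and 18.4%. The H19 upstream region, which is methylated in sperm, was represented by 2 sites with 84.6% to 100% methylation. In bulk DNA a level is the share of methylated molecules, and methylated sperm DNA cannot be told apart from DNA of other cells. The part of such DNA in the results below was not tested.

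The promoters of forkhead genes were almost free of methylation in all animals. Of 39 genes, 36 had a promoter site and 35 had the 3 sites required for a test. The median promoter level was 1.2%, 32 of the 35 promoters had a mean under 5%, and 34 were under 10%. Among all 12860 promoters tested, the median was 1.0% and 91.6% were under 10%. The forkhead promoters were rich in CpG: the ratio of observed to expected CpG in the 2 kb around the start had a median of 0.77 and exceeded 0.6 in 76.9% of the genes, against a median of 0.49 and 34.3% among all protein-coding genes.

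**Figure D1:**
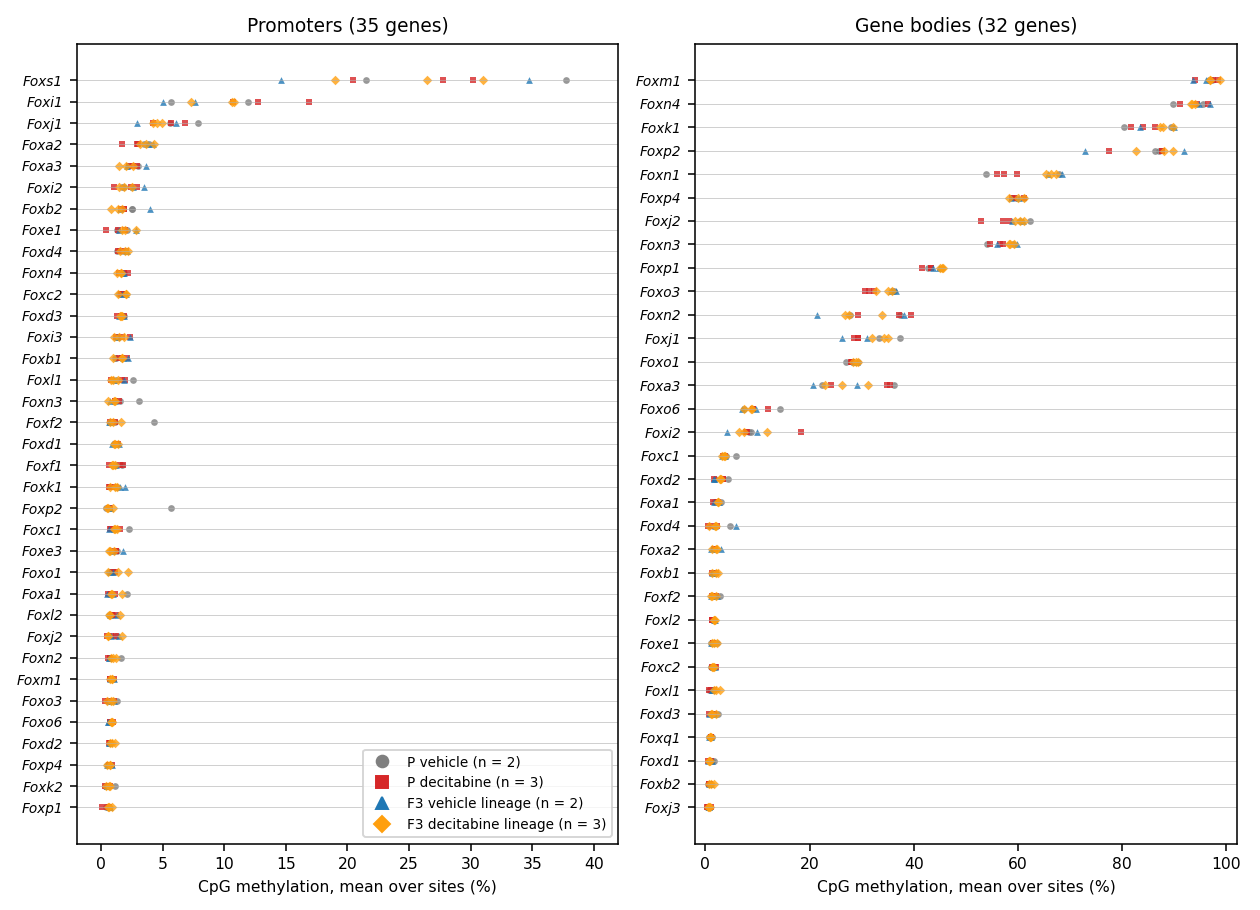
Mean CpG methylation (x axis, %) of the promoter (left, 35 genes) and the gene body (right, 32 genes) of each forkhead gene, one symbol per animal and one row per gene in the order of the mean. Foxs1 and Foxi1 stand above the other promoters, whereas the bodies extend from under 1% (Foxj3) to 96.6% (Foxm1).

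Foxs1, a forkhead factor known from the vasculature and neural crest, had the highest promoter level, with a mean of 26.3% over 16 sites. In the P-generation it read 21.5% in C14 and 37.7% in C8, and 30.2%, 27.8% and 20.5% in D10, D11 and D13. In the F3-generation it read 14.6% in F3C30 and 34.7% in F3C9, and 31%, 26.4% and 19% in F3D1, F3D31 and F3D7. C8 was the highest and D13 the lowest animal of the P-generation, in the F3-generation the vehicle animals were the lowest and the highest, and the groups overlapped in both. All 16 sites were downstream of the start, in coding sequence.

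Foxi1, a factor of ionocytes in the inner ear and kidney, followed with a mean of 9.92% over 10 sites. It read 5.67% and 11.9% in the P vehicle animals and 16.9%, 10.7% and 12.7% in the treated animals. In the F3-generation it read 5.01% and 7.6% in the vehicle and 10.6%, 7.3% and 10.8% in the decitabine lineage. The means were higher by 4.64 percentage points in the P-generation and 3.27 in the F3-generation, but the animals overlapped in both and the limma test gave adjusted p = 0.709 and 1. When single animals were left out, the differences ranged from 1.51 to 7.77 and from 1.97 to 4.56 points. Foxj1, Foxa2, Foxa3 and Foxi2 followed with means of 5.28%, 3.38%, 2.46% and 2.17%. Foxs1, Foxi1, Foxi2 and Foxh1 had observed to expected CpG ratios of 0.30, 0.25, 0.41 and 0.31, below the median of the family.

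Foxj3, Foxn1 and Foxq1 had no promoter site. Their starts in GENCODE lay in sequence with ratios of 0.17, 0.20 and 0.25. The RefSeq start lay 2657 bases downstream for Foxj3 and 2036 bases downstream for Foxq1, and within 1 kb of these starts 123 sites of Foxj3 averaged 0.6% and 81 sites of Foxq1 averaged 1.05%. These sites were counted as body under the GENCODE start.

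Methylation rose with the distance from the start. Between 0.5 kb upstream and the start the forkhead sites averaged 1.02%, from 1 to 2 kb downstream 2.3%, from 2 to 5 kb 6.91%, from 5 to 10 kb 42.1% and beyond 50 kb 59.8%. Over all protein-coding genes the same bins averaged 1.63%, 8.77%, 28.6%, 40.4% and 60.8%. The 1 to 2 kb upstream of forkhead genes averaged 1.81%, against 19.5% over all genes. Bins beyond 5 kb held sites of 6 to 11 forkhead genes each, so a few genes carried these means.

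**Figure D2:**
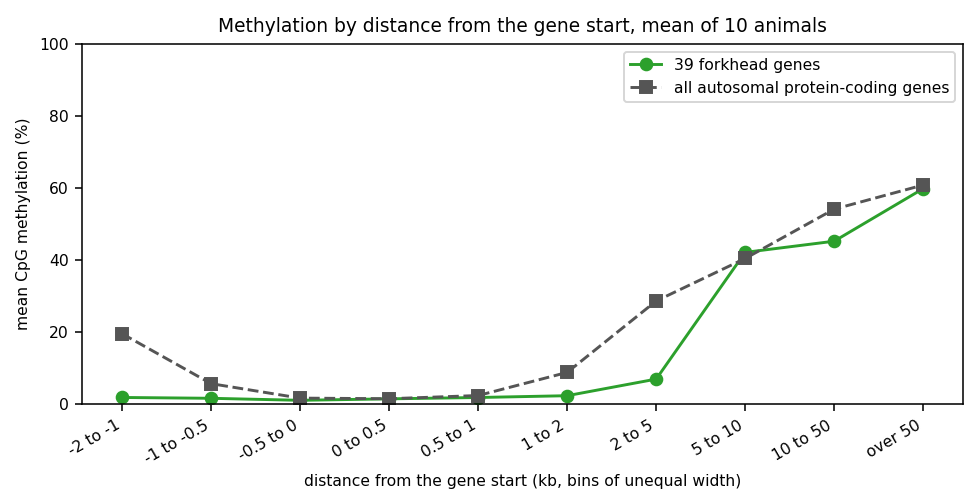
Mean methylation of CpG sites over 10 animals (y axis, %) by distance from the gene start (x axis, kb, bins of unequal width) for the 39 forkhead genes and for all autosomal protein-coding genes. The forkhead line stays at 6.91% or below up to 5 kb, where all genes together reach 28.6%.

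In total 32 gene bodies had at least 3 sites, with a median of 6.42%, against 75.1% over all 11702 bodies tested. The group medians were 6.69% in P vehicle, 6.85% in P decitabine, 5.41% in F3 vehicle and 5.91% in F3 decitabine animals, and 2.79%, 2.46%, 4.7% and 3.06% when at least 20 reads per site were required. Under 10% lay 18 of the 32 forkhead bodies (56.2%) and 11.5% of all bodies. The level followed gene length, a split chosen after the values were seen: 17 genes under 10 kb had a median of 1.68% and 16 of them were under 10%, whereas 15 genes of 10 kb or more had a median of 57.3% and a range from 0.6% to 96.6%. Among the short genes were the endoderm factors Foxa1 (2.24%) and Foxa2 (1.84%), the mesoderm factors Foxc1 (3.78%) and Foxc2 (1.53%), and Foxl2 (1.56%), a factor of the ovary. Hox cluster genes had a median body level of 5.31% over 31 bodies and T-box genes of 7.64% over 13 bodies.

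The 6 highest bodies were Foxm1 (96.6%, 10 sites), Foxn4 (94%, 7 sites), Foxk1 (86%, 55 sites), Foxp2 (85.2%, 6 sites), Foxn1 (62.8%, 20 sites) and Foxp4 (59.8%, 95 sites). Foxm1 read from 93.6% (F3C9) to 98.8% (F3D7). Foxn1, the factor of the thymic epithelium, read 67.9% in C14, 53.8% in C8, 55.9% to 59.7% in the treated animals and 65.4% to 68.4% in all F3 animals. The lowest 6 were Foxd3 and Foxl1 (both 1.42%), Foxq1 (0.98%), Foxd1 (0.92%), Foxb2 (0.88%) and Foxj3 (0.6%).

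At single CpG sites, decitabine treated and vehicle animals of the P-generation were compared by a logistic model of the summed counts, and calling a site required pooled levels 25 or more percentage points apart together with q under 0.01. Of 4157 forkhead sites, 24 were called, 7 with higher and 17 with lower methylation in treated animals, which is 0.577% against 0.67% of all sites. All 24 lay in gene bodies, 13 in introns, 10 in coding exons and 1 in an untranslated exon, in 11 genes. None of the 2101 promoter sites was called in either generation. Of these sites, 98.1% had a mean under 10%, a level that leaves little room for a difference of 25 points. The share called over all promoter sites is not given. Among sites with a mean of at least 10%, 4.1% of 586 forkhead sites and 1.83% of all such sites were called. This model holds no term for the variation between animals, and limma on the same sites called 0, with 282 forkhead sites at unadjusted p under 0.05 (6.78%, against 5.62% of all sites).

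The number of called sites fell without C8 and rose without C14, among the forkhead sites and among all sites of the series. Each of these fits kept 1 vehicle animal, so its counts rest on that animal and appear only in the ranges given with the processing. In 10 of the 24 sites the difference was at least 25 points without either vehicle animal. In 6 it fell under 10 points without 1 animal, such as at 2 intronic Foxp1 sites that read 0% in C8 and 92.9% to 96.4% in C14, with 95.8% to 100% in treated animals.

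Foxk1, a forkhead repressor with a role in metabolism, had 3 called sites in the P-generation, 2 higher and 1 lower. At the lower one, in an intron, the vehicle animals read 73.8% and 53.8% and the treated animals 40%, 30.6% and 45%. Its difference of -31.9 points was -16.6 without C14. The 2 higher ones, at 27.6 and 29 points, were 18.2 and 9.5 points without C8, and the groups overlapped at the latter. At an intronic site of Foxn1 the vehicle animals read 74.2% and 89.7% against 29.2%, 50% and 40% in treated animals. This difference of -42.6 points ranged from -50.6 to -35.1 without any 1 animal (q = 0.000184, logistic model). In the F3-generation the Foxn1 site differed by -1.8 points.

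The most called sites were in Foxo3 and Foxp1, with 6 each. Foxo3 encodes a FOXO factor of stress resistance and of the ovarian follicle reserve, and Foxp1 a repressor in lymphocytes, heart and brain. In Foxo3, 5 of the 6 sites lay within a stretch of 15 sites over 550 bases of a coding exon, about 79 kb from the gene start. At the site of the largest difference, position 42197358 of chromosome 10, C14 read 82.4% and C8 100%, while D10, D11 and D13 read 17.4%, 63.2% and 25%. The groups did not overlap, with a pooled difference of -56.4 percentage points (q = 1.94e-05, logistic model) and a range from -70.4 to -45.2 when any 1 animal was left out.

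At position 42197403 the vehicle animals read 88.2% and 100% and the treated animals 26.1%, 63.2% and 31.2%. At position 42197373 they read 88.2% and 100% against 52.2%, 47.4% and 50%. In the F3-generation these 3 sites read from 65.2% to 100% in the vehicle lineage and from 50% to 100% in the decitabine lineage, and none was called. Depth at these sites was 16 to 30 reads. The sites lie in a window of 107 bases, so they can share reads and are not independent. The window is printed because it holds the 3 largest differences in the P-generation, with these sites in capitals (GRCm38, chr10:42197328-42197434, minus strand), and it occurred once in the genome.
Foxo3: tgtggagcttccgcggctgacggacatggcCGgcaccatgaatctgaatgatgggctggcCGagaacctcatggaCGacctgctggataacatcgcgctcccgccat

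Over the 15 sites of the stretch, which was chosen for its calls, the mean was 66.3% and 76% in P vehicle and 48.2%, 50% and 43.2% in treated animals, with 13 of 15 sites lower. In the F3-generation it was 71% and 70.5% in the vehicle lineage and 68%, 54.4% and 61.2% in F3D1, F3D31 and F3D7. There 13 of 15 sites were lower, with differences from -0.4 to -36.3 points. Neighbouring sites can share reads, so these counts of sites are not counts of independent values. The F3 call in Foxo3, at position 42197793, lay in the same stretch. It read 63.9% and 88.4% in the vehicle lineage and 57.7%, 32.4% and 33.3% in the decitabine lineage (-36.3 points, q = 1.84e-05, logistic model), and 56.1% and 71% against 34%, 43.9% and 39.3% in the P-generation (-22.6 points, q = 0.0298). When single animals were left out, the F3 difference ranged from -47.2 to -20.2 points, and without F3C9 it was below the 25 points required. Although F3D1 and F3D31 descend from the same treated male, F3D1 lay nearer to F3C30 than to F3D31 at this site. The site is printed as the largest F3 difference, in capitals (GRCm38, chr10:42197763-42197824, minus strand).
Foxo3: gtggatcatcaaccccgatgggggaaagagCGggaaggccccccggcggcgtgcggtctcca

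**Figure D3:**
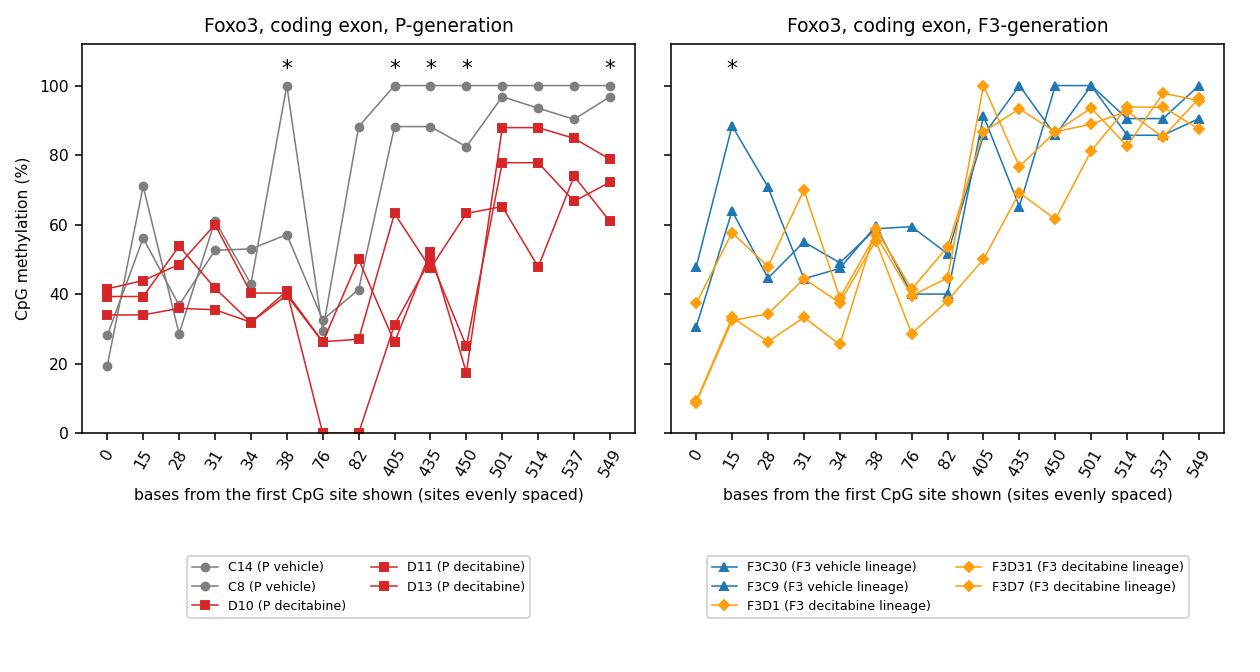
CpG methylation (y axis, %) at 15 sites of a Foxo3 coding exon in the P-generation (left) and the F3-generation (right), one line per animal, sites evenly spaced and labelled by their distance in bases; asterisks mark called sites. In the P-generation 5 sites were called and the treated animals lie below the vehicle animals there, whereas 1 site was called in the F3-generation.

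Averaged over all 82 sites, the Foxo3 body read 35.7% and 36.3% in P vehicle and 31.4%, 32.3% and 30.7% in treated animals. These groups did not overlap and the difference of -4.57 points ranged from -4.99 to -4.2 without any 1 animal. The 82 sites include the 15 of the stretch chosen for its calls, where the mean difference was -24.1 points. The body mean is therefore not separate from that stretch. With limma, which uses the spread between animals, the log2 ratio was -0.29 ± 0.08 (SE) with adjusted p = 0.371. At a minimum of 20 reads, which the sites of the largest P-generation differences did not reach, the body difference was -1.12 points. In the F3-generation the body read 36.7% and 35.7% against 35.8%, 32.8% and 35.1%, and the groups overlapped.

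In Foxj1, the regulator of motile cilia, 2 body sites were called lower in the P-generation and 1 neighbouring site higher in the F3-generation. At position 116332577 of chromosome 11, in an intron, the F3 vehicle lineage read 51.4% and 22.2% and the decitabine lineage 63%, 77.3% and 73.5% (31 points, q = 0.0052, logistic model). The difference ranged from 18.7 points without F3C9, below the 25 points required, to 47.9 points without F3C30. In the P-generation the same site read 66.7% and 92.3% in vehicle and 42.3%, 54.1% and 48% in treated animals, without a call. The direction differed between the generations. The site is printed as the largest F3 difference after those in Foxo3 and Foxc1 (GRCm38, chr11:116332547-116332608, minus strand, site in capitals).
Foxj1: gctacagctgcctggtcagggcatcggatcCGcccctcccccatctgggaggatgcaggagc

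Over its 22 sites, the Foxj1 body read 33.3% and 37.3% in P vehicle and 29.3%, 29.2% and 28.5% in treated animals. In the F3-generation it read 30.9% and 26.3% in the vehicle and 31.9%, 35% and 34.2% in the decitabine lineage. The groups did not overlap in either generation and the directions were opposite. The difference between the generations was 0.75 ± 0.17 (SE) on the log2 scale, with adjusted p = 0.552 (limma). With at least 20 reads per site both differences turned, to 1.76 points in the P-generation and -1.36 points in the F3-generation, and with summed reads they were -0.27 and -2.83 points.

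**Figure D4:**
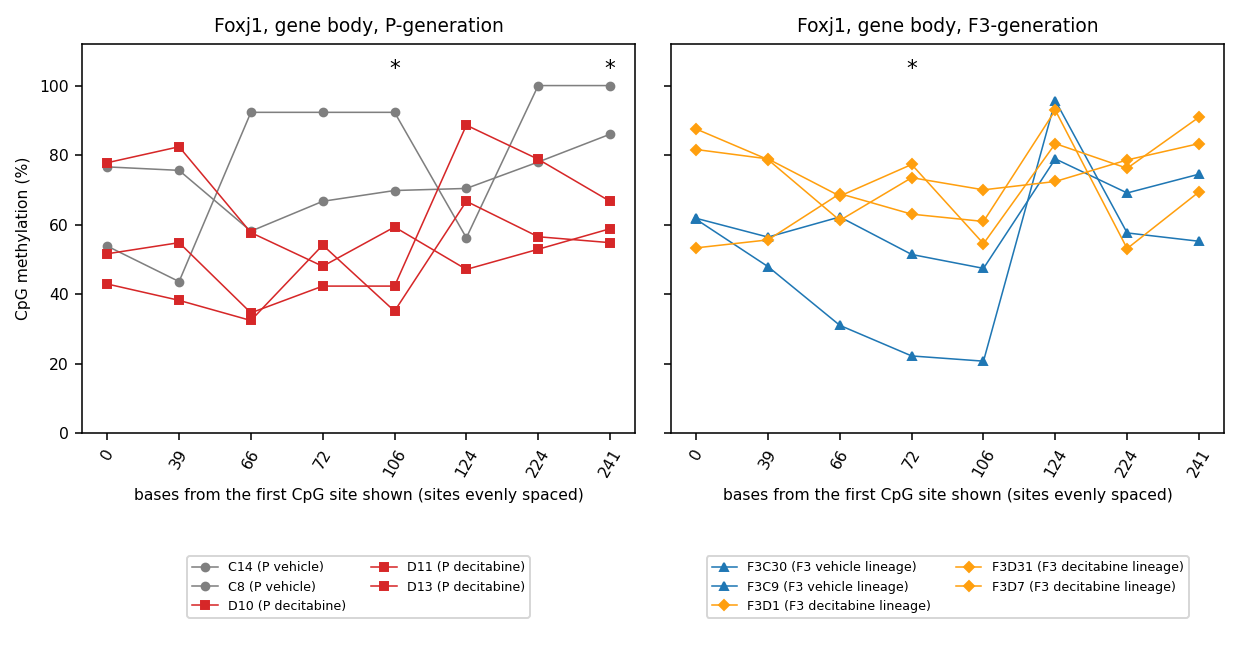
CpG methylation (y axis, %) at 8 sites of the Foxj1 body, chosen around the called sites, in the P-generation (left) and the F3-generation (right), one line per animal, sites evenly spaced and labelled by their distance in bases; asterisks mark called sites. Treated animals averaged 55.2% against 75.7% in P vehicle, and the F3 decitabine lineage 72.2% against 55.8% in the F3 vehicle lineage.

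In the F3-generation, 4 forkhead sites were called, 3 higher and 1 lower, which is 0.0962% against 0.216% of all sites. Among sites with a mean of at least 10%, 0.683% of the forkhead sites and 0.593% of all were called. Beside Foxo3 and Foxj1 these were a site in the untranslated end of Foxc1, a mesoderm and eye factor, and an intronic site of Foxp1. The Foxc1 site, position 31811803 of chromosome 13, read 7.1% and 0% in the vehicle lineage and 44.8%, 18.2% and 30.6% in the decitabine lineage (32.2 points, q = 0.000461, logistic model). In the P-generation it ranged from 6.1% to 43.8% in treated and from 11.8% to 42.1% in vehicle animals. It is printed as the largest F3 difference after that in Foxo3, in capitals (GRCm38, chr13:31811789-31811817, plus strand).
Foxc1: cagtcaggccgcacCGgccggcttgctcc

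The Foxp1 site read 88.2% and 43.5% against 95.7% to 100%, a difference that was 10.9 points without F3C9. Limma called 0 sites, with 213 forkhead sites at unadjusted p under 0.05 (5.12%, against 3.7% of all).

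None of the 24 sites of the P-generation had q under 0.01 in the F3-generation. Their median absolute difference was 30.1 points in the P-generation and 6.55 in the F3-generation. The call fixed the first value and not the second, so they stand side by side without a test.

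Averaged over regions, none of the 35 promoters or 32 bodies passed adjusted p 0.05 in any contrast (limma). For promoters the share of all regions called was 0.0% in each contrast. For bodies it was 0.0171% between treated and vehicle animals of the P-generation and 0.0% elsewhere. At unadjusted p under 0.05 there was 1 forkhead promoter in the P-generation (7.81% of all promoters), 0 in the F3-generation (2.85%), 1 in the difference between the generations (5.8%) and 2 between the vehicle groups of the generations (5.47%). For bodies there were 3 (8.92%), 1 (2.55%), 1 (6.53%) and 1 (5.01%). In the P-generation 24 of 35 forkhead promoters and 22 of 32 bodies had a lower mean in treated animals, with median differences of -0.09 and -0.3 points, against -0.1 and -0.55 points over all promoters and bodies. In the F3-generation the medians were -0.05 and 0.27 points, against 0.07 and 0.27 over all. The 3 bodies of the P-generation were Foxo3, Foxj1 and Foxj2, all lower in treated animals.

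Foxj2, a broadly expressed activator also known from spermatogenesis, read 62.3% and 60.4% in the body of P vehicle and 57.1%, 52.8% and 58.3% of treated animals, with a difference of -5.29 points and adjusted p = 0.492 (limma). In the F3-generation it read 58.9% to 61.1% in all 5 animals. The treated and vehicle animals did not overlap in 7 of 35 forkhead promoters in the P-generation (20.6% of all promoters) and in 8 in the F3-generation (17.9%). For bodies this was 6 of 32 in both generations (19.5% and 19.1% of all bodies). In opposite directions in the generations, it was 2 promoters (2.1% of all) and 1 body (2.61%).

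Among the other regions with the largest differences in the F3-generation, the Foxb2 promoter read 1.55% and 3.97% in the vehicle and 0.83%, 1.4% and 1.66% in the decitabine lineage. The Foxi2 promoter read 3.46% and 2.58% against 1.81%, 1.43% and 2.52%, without overlap. The Foxa3 promoter read 2.12% and 3.62% against 1.98%, 1.44% and 2.58%. None of these promoters passed the test.

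The Foxp2 body, with 6 sites, read 72.8% and 91.8% in the F3 vehicle and 82.7%, 88% and 89.8% in the decitabine lineage, so the vehicle animals enclosed the others. The Foxm1 body read 96% and 93.6% against 96.9%, 96.9% and 98.8%, without overlap. The Foxd4 body read 1.83% and 5.89% against 1.75%, 0.65% and 1.95%, and the groups overlapped. None of these bodies passed the test.

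The promoters of Foxf2, a factor of mesenchyme, and Foxp2, a factor of brain and lung, carried methylated sites in C8. Foxf2 read 4.29% in C8 and 0.63% to 1.64% in the other animals, and Foxp2 5.69% in C8 and 0.37% to 0.94% in the others. In C8, 6 sites of Foxf2 read 33.3% to 50% at 14 to 20 reads, and 5 sites of Foxp2 read 30.4% to 35.7% at 14 to 23 reads. Neighbouring sites can share reads, so these counts of sites are not counts of independent values. In each other animal none of the sites of both promoters exceeded 20%. When C14 was left out, so that C8 alone stood for the vehicle, the P-generation difference was -5.03 points for Foxp2 and -3.41 points for Foxf2. Without C8 the Foxp2 difference was 0.29 points and that of Foxf2 -0.26 points. C8 was the highest of the 10 animals in 11 of 35 promoters and in 12 of 32 bodies, and the lowest in 1 promoter and 8 bodies.

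The levels of several forkhead bodies moved with those of the germ line gene promoters across the 10 animals. Of 67 relations tested by permutation, 7 passed a Benjamini-Hochberg adjusted p of 0.05, all in bodies. Foxn2 (r = 0.93, rho = 0.92, adjusted permutation p = 0.0141 and 0.0161), Foxo6 (r = 0.8) and Foxa3 (r = 0.87) were positive. Foxn3 (r = -0.92), Foxp1 (r = -0.89), Foxk1 (r = -0.87) and Foxo1 (r = -0.84) were negative. Without D11 and F3D7, the animals farthest from the median, these 7 coefficients were 0.94, 0.82, 0.91, -0.88, -0.87, -0.92 and -0.86. By rank, 4 relations passed. The Foxs1 promoter gave r = 0.78 with adjusted permutation p = 0.0749. Coefficients above 0.8 were found in 6.25% of the forkhead bodies (2 of 32) and in 3.26% of all bodies, those above 0.6 in 12.5% (4) and 9.98%. Those below -0.8 were found in 12.5% (4) and 7.93%, and those below -0.6 in 25% (8) and 25.3%. The median coefficient was 0.26 over the forkhead bodies and -0.28 over all bodies. On the mean of the germ line promoters the P decitabine animals (22.6% to 30.7%) and the F3 decitabine animals (13.1% to 21.2%) did not overlap, so the coefficients over 10 animals also carry any difference between these groups. A value within each generation was not given because 5 animals are too few.

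**Figure D5:**
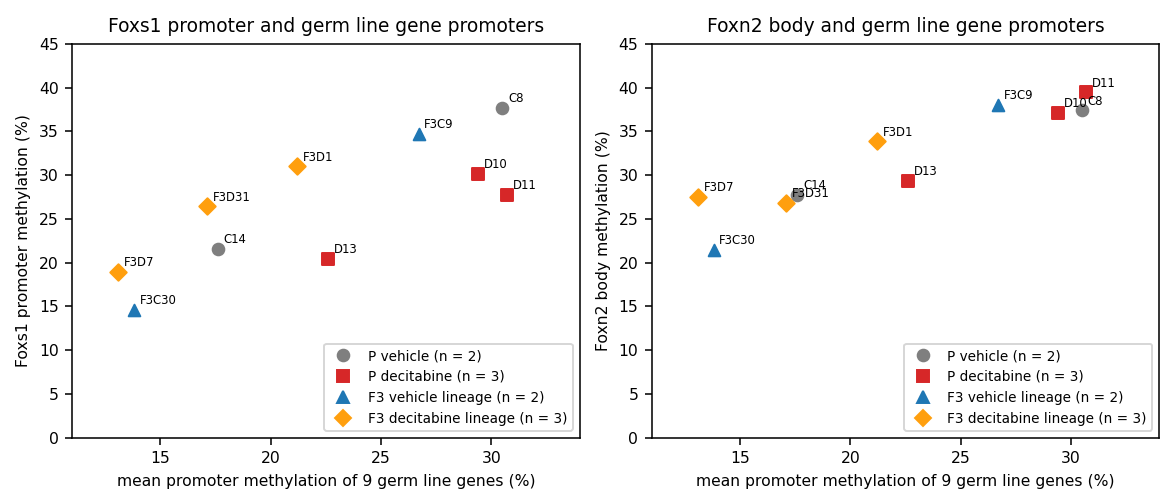
Methylation of the Foxs1 promoter (left) and the Foxn2 body (right) in each animal (y axis, %) against the mean promoter methylation of 9 germ line genes (x axis, %), symbols by group. The Foxn2 body ranges from 21.5% in F3C30 to 39.5% in D11.

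Genes that act with forkhead factors were taken from a list of 48 genes upstream of FOXO, targets of FOXO, FOXM1 and FOXJ1, and partners of FOXH1. Among their 40 promoters and 40 bodies, none passed adjusted p 0.05 in either generation (limma). The promoters had a median of 0.949% and the bodies of 39.8%. Among those at unadjusted p under 0.05, the Plk1 promoter, of a mitotic kinase, was lower in treated animals (1.9% against 4.6%), while in the F3-generation the promoter of Sesn3 (1.8% against 0.8%) was higher and the promoter of Nodal (1.7% against 3.6%) and the body of Cdc25b (93.4% against 98.6%) were lower in the decitabine lineage.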

How the data were processed

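The authors sequenced RRBS libraries of sperm DNA cut with MspI and processed them, per the labels, with CASAVA 1.8.2, Trim Galore 0.3.3, cutadapt 1.1 and Bismark 0.10.1 on mm10. The deposited files give pairs of methylated and unmethylated read counts per CpG cytosine and strand. All 2620673 positions were CpG cytosines of GRCm38. Strands were summed and sites with at least 10 reads in all 10 animals kept. MspI fragments favour CpG-rich sequence, so CpG-poor bodies are sampled thinly. Sites were tested by a likelihood ratio test, with the study's thresholds, and regions of at least 3 sites by limma on log2((mean + 0.01)/(1 - mean + 0.01)) over all autosomal protein-coding genes, both Benjamini-Hochberg adjusted. On simulated data of the P-generation, 193 of 200 sites changed by 40 percentage points among 100000 sites were recovered with 0 false calls, and 181 of 200 promoters changed by 3 on the log2 scale among 12860 promoters with 10 false calls. The simulated sites held counting error only and no variation between animals, so their 0 false calls say nothing about sites where animals differ. Smaller changes were not simulated. Genes with the highest or lowest levels, the largest differences or the most calls were named. Members and lists were chosen with earlier results of these data known. Whether replicates share litters is not given in the sources used here. No 2 libraries were identical. Some items are not reported here.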

Additional observations from a re-analysis of the deposited data

Results flagged for a closer look

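In 3 regions the treated and vehicle animals did not overlap in either generation and differed in opposite directions. The decitabine effect of the F3-generation minus that of the P-generation was 0.75 on the log2 scale for the Foxj1 body (adjusted p = 0.552, limma), -0.65 for the Foxb1 promoter (adjusted p = 0.86, limma) and 0.29 for the Foxd2 promoter (adjusted p = 0.9, limma). The Foxj1 body includes 8 sites chosen around its calls, with mean differences of -20.5 points in the P-generation and 16.4 in the F3-generation. The promoters stayed low throughout, at 0.93% to 2.16% in Foxb1 and 0.59% to 1.15% in Foxd2.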

How the results depend on the processing

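For the counts of called CpG sites, 15 of 26 alternatives moved the count by more than 1.5 times. The counts of called promoters and bodies were 0 as reported and 0 under 151 of 154 alternatives, which says little about stability. The cause was not tested. In the P-generation the 24 called forkhead sites became 52 at a difference of 15 points, 4 at 40 points, 7 with at least 20 reads and 0 with limma per site, and ranged from 6 to 111 when single animals were left out. In the F3-generation the 4 sites became 13 at 15 points, 0 at 40 points, 1 with at least 20 reads, 2 with the minimum per strand, 1 after thinning to the shallowest animal and 0 with limma, and ranged from 1 (without F3C9) to 32 (without F3C30). Leaving out single animals raised a count of promoters or bodies only without C14, where C8 alone stood for the P vehicle. This concerned promoters in the P-generation, and promoters (Foxp2) and bodies (Foxn1) between the vehicle groups. The share over all regions is not given for that fit.

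Of the differences of named regions, 7 reversed. The Foxj1 body became 1.76 points in the P-generation and -1.36 in the F3-generation with at least 20 reads, which left out the 8 sites around its calls. It became -2.83 in the F3-generation with summed reads. Leaving out single animals gave -11.61 to 4.59 points for the Foxs1 promoter, -5.03 to 0.29 for the Foxp2 promoter and -10.28 to 3.83 for the Foxn1 body in the P-generation, and -4.96 to 14.05 for the Foxp2 body in the F3-generation. A planned edgeR alternative was not run because the files hold pairs of numbers, and limma on summed reads, chosen after seeing the data, took its place. With 2 vehicle animals per generation the spread is poorly known. The labels give the groups no shared replicate numbers. With the founder male of each animal as a block (limma), added after seeing the data, 0 forkhead promoters and bodies were called between the generations. At unadjusted p under 0.05 there were 2 promoters and 3 bodies in the vehicle lineages, and 1 and 4 in the difference of the decitabine effect. The share over all promoters and bodies is not given for this fit, so these unadjusted counts cannot be set against a background. The median body level was 2.46% to 4.7% per group with at least 20 reads, against 5.41% to 6.85%.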
